A study of Oryza sativa Indica Group with 64 samples.

Results

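Each of the 150 rice genes described here had its own largest difference between warm night temperature (WNT) and Control leaves 10 h after dawn. They were chosen from 57174 genes by their measured levels, and the identity of the genes played no part. Levels were CPM, the counts of a gene scaled to 1000000 reads counted on genes in its library, summarised as the median of log2(CPM + 1) over the 4 libraries of a treatment and time point. D denotes the WNT median minus the Control median at one time point, so a positive D means a higher level in WNT. A gene was eligible when its mean over all 64 libraries was 1 to 500 CPM and its Control median varied by less than 2 over the day, which left 14150 genes. Of these, 13004 did not keep a single sign of D across the 8 time points, 1356 of them had their largest D in size at 10 h, and in 435 of those the 4 WNT and 4 Control values at 10 h did not overlap. The 150 with the largest D in size were taken. All comparisons of WNT with Control below therefore describe the choice, and nothing is read from the calls given for them.

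The libraries came from leaves of IR64, an indica rice variety, grown in the field at IRRI in the dry season. WNT plants were warmed by infrared heaters at night, and Control plants formed the unheated set of the same time course. Sampling ran through a full day, at dawn and 3, 7 and 10 h later, at dusk, and then 14, 17 and 23 h past dawn. Each treatment had 4 replicates per time point, and poly(A) RNA was sequenced with a directional kit. How plots, heaters and plants were divided among the replicates is not given in the sources used here, so plot and treatment cannot be told apart, and p-values measure only the spread between these libraries. A leaf library mixes many cell types, so fewer cells of a type and less RNA per cell cannot be told apart.

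Many leaf transcripts rise and fall once a day under the circadian clock and the direct action of light and temperature. Transcripts for photosynthesis are mostly made in the light, and those for starch use and growth often follow at night. A leaf sampled 10 h after dawn is in daylight, and the labels place the warming of WNT plants at night, not at that hour. Genes are listed under identifiers that start with the letters MH, the files do not pair them with names, and 0 of 57174 matched the gene table used here. For this reason no function is given for any member, the leaf identity of the libraries was not checked against marker genes, and 4 members are named by identifier.

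The libraries held 1714647 to 37248564 counts on genes (median 8627815). At 10 h the range was 9269659 to 33500539 in WNT and 8700244 to 15586969 in Control. Unaligned reads made up 10.7% to 15.1% of the WNT and 12.7% to 14.6% of the Control libraries of that hour. No pair of the 64 libraries had identical counts.

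The module leaned towards higher levels in WNT. At 10 h, 120 of the 150 members were higher in WNT and 30 were lower. Among the 285 genes that passed every condition but ranked below the 150, 186 (65.3%) were higher and 99 were lower. Among all 1416 eligible genes whose groups did not overlap at 10 h, 937 (66.2%) were higher in WNT. The 937 make up 6.62% of the eligible genes, and the 479 that lay lower make up 3.39%. Since the rule required groups that do not overlap at 10 h, nothing about the members is read from these shares.

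The differences at 10 h were moderate. The higher members had a median D of 0.74, with a range of 0.59 to 1.59. With the log2 undone, their median corresponds to a CPM + 1 of 1.67 times that of Control. The lower members had a median D of -0.71, with a range of -1.84 to -0.59, and their median corresponds to a CPM + 1 of 0.612 times that of Control. A D of 1 or more in size was found in 15 members, 13 higher and 2 lower. The boundary of the module was not marked by a gap, since the last genes inside had a D of 0.5902 and 0.5901 and the first ones outside had -0.5900 and 0.5866. Members were more abundant than the eligible genes as a whole, with a median of their mean levels of 31.3 CPM in the higher and 29.4 CPM in the lower members, against 17.7 CPM in the 14150.

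The difference at 10 h stood above smaller differences at other times rather than alone. In the higher members the ratio of D at 10 h to the next largest D in size had a median of 1.48, with a range of 1.02 to 4.41. It was at least 2 in 17 of 120 and under 1.2 in 25. In the lower members the ratio had a median of 1.22, with a range of 1.00 to 2.52, and was at least 2 in 2 of 30 and under 1.2 in 13. The median ratio was larger in the higher than in the lower members, and in the members with a ratio under 1.2 another time point came close. The rule used the D values behind these ratios, so nothing more is read from them. Dawn held the next largest difference in 36 of the higher members and 7 h in 27, followed by dusk (18), 23 h (16) and 14 h (15).

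Over the day, the higher members kept a positive median D at every time but 3 h. The median D was 0.33 at dawn, where 100 of the 120 had a positive D, and -0.05 at 3 h, where 42 did. It climbed to 0.30 by 7 h, with a positive D in all but 5 members, and to 0.74 by 10 h. It was 0.29 at dusk and 0.24 at 14 h, with a negative D in 14 and 18 members. At 17 h it was 0.07, with 79 members positive, and by 23 h it stood at 0.31, with 15 members negative. Eligible genes as a whole had medians between -0.02 and 0.12 over the 8 times. A rule that asks for mixed signs was met by most higher members through a single time point, as 70 of the 120 had the opposite sign only once, 45 of them at 3 h and 16 at 17 h.

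The lower members showed a less regular course. The median D was -0.22 at dawn, where 20 of the 30 had a negative D, and -0.08 at 3 h, where 16 did. Before and after the -0.71 of 10 h it was -0.34 (7 h) and -0.31 (dusk), with 25 members negative each time. Through the night it was -0.16 (14 h), -0.17 (17 h) and 0.03 (23 h), with 22, 21 and 13 members negative. The opposite sign was thus most frequent at 23 h, in 17 members, and 11 of the 30 had it at a single time.

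**Figure D1:**
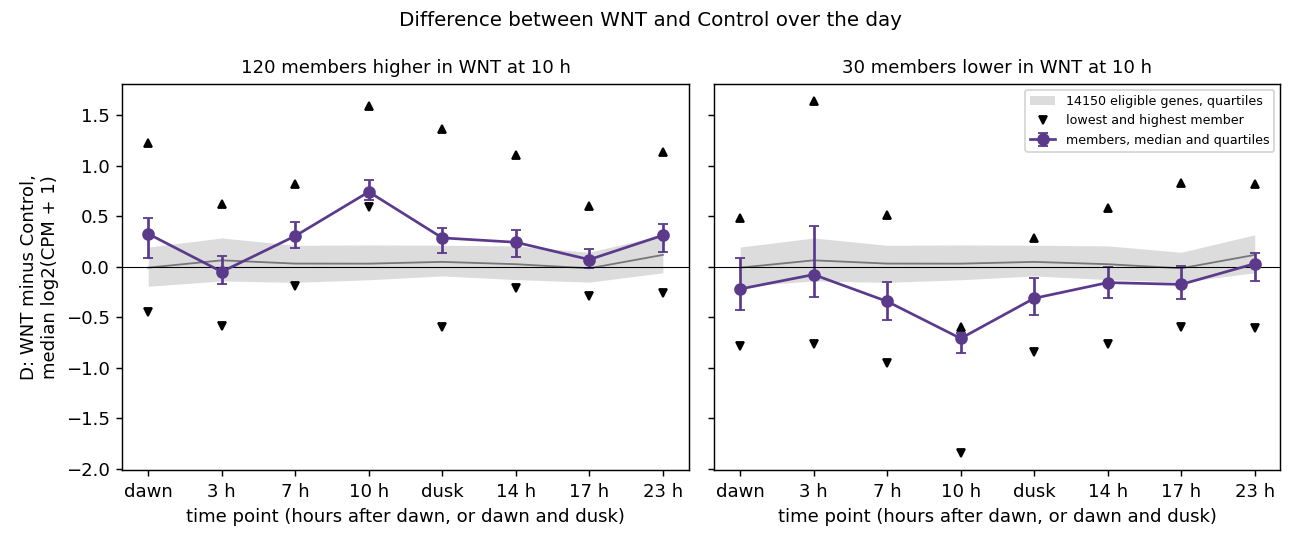
D (WNT minus Control, medians of log2(CPM + 1) over 4 libraries) by time point for the 120 higher members (left) and the 30 lower members (right). Circles and bars are the median and quartiles over members, triangles the lowest and highest member, and the grey band the quartiles of the 14150 eligible genes. The higher members' median is 0.74 at 10 h and between -0.05 and 0.33 at the other times, and the lower members' median is -0.71 at 10 h and between -0.34 and 0.03 at the other times.

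The groups separated in fewer members on either side of 10 h. At 7 h the WNT and Control libraries did not overlap in 32 of the 120 higher members, all with WNT above, where 2.64% of the eligible genes had WNT above. Dusk had 15 of 120, beside 1.99% of the eligible genes, and 14 h had 12, also beside 1.99%. The count was 8 by 23 h, beside 5.06%, and 2 at dawn, beside 2.32%. It was 1 at 3 h and 1 at 17 h, beside 2.91% and 1.85%. In the lower members, WNT lay below Control without overlap in 5 of 30 at dusk (0.961% of the eligible genes), in 3 at dawn (2.28%), and in 2 each at 7 h (1.61%) and 23 h (1.61%). It did so in 1 each at 3 h (1.82%) and 17 h (1.90%) and in 0 at 14 h (1.07%). The rule used D at all 8 times, so nothing is read from these counts.

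The 10 h levels of the higher members were set against those of the neighbouring times, 7 h and dusk. The rule chose the members on their 10 h values, which favours a high WNT and a low Control level there (the reverse for the lower members), so these counts are a description from which nothing is read. The WNT level at 10 h lay above that at both neighbouring times in 92 of 120, and exceeded the mean of the neighbours by a median of 0.29 on the log2 scale. The Control level at 10 h lay below both neighbours in 63 of 120 and between them in 54, and differed from their mean by a median of -0.21. Each member was also set against its own mean Control level over the day. Over the 120, the WNT median of this measure was 0.97 at 10 h, flanked by 0.75 (7 h) and 0.55 (dusk), and the Control median was 0.18, flanked by 0.38 and 0.28.

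Of the lower members, WNT lay below both neighbours at 10 h in 20 of 30, by a median of -0.29 against their mean. Control lay above both in 14 of 30 and between them in 13, with a median of 0.15. Relative to the members' own mean Control level, the WNT median was -0.54 at 10 h, flanked by -0.19 (7 h) and -0.16 (dusk), and the Control median was 0.19, flanked by 0.08 and 0.09.

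The time of the highest level over the day was taken from the group medians. In WNT, 75 of the 120 higher members had their highest level at 10 h, 20 reached it at 14 h and 14 at 7 h, while 10.9% of the eligible genes were highest at 10 h in WNT. In Control the highest level came at 14 h in 52 and at 7 h in 39, and in 0 members at 10 h, while 34.6% of the eligible genes were highest at 14 h, 9.50% at 7 h and 7.37% at 10 h in Control. The lowest level of WNT leaves came at 23 h (46 members), dawn (39) or 3 h (26), and that of Control leaves at dawn (59) or 23 h (41). These positions at 10 h follow in part from the rule, which required a large difference there.

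**Figure D2:**
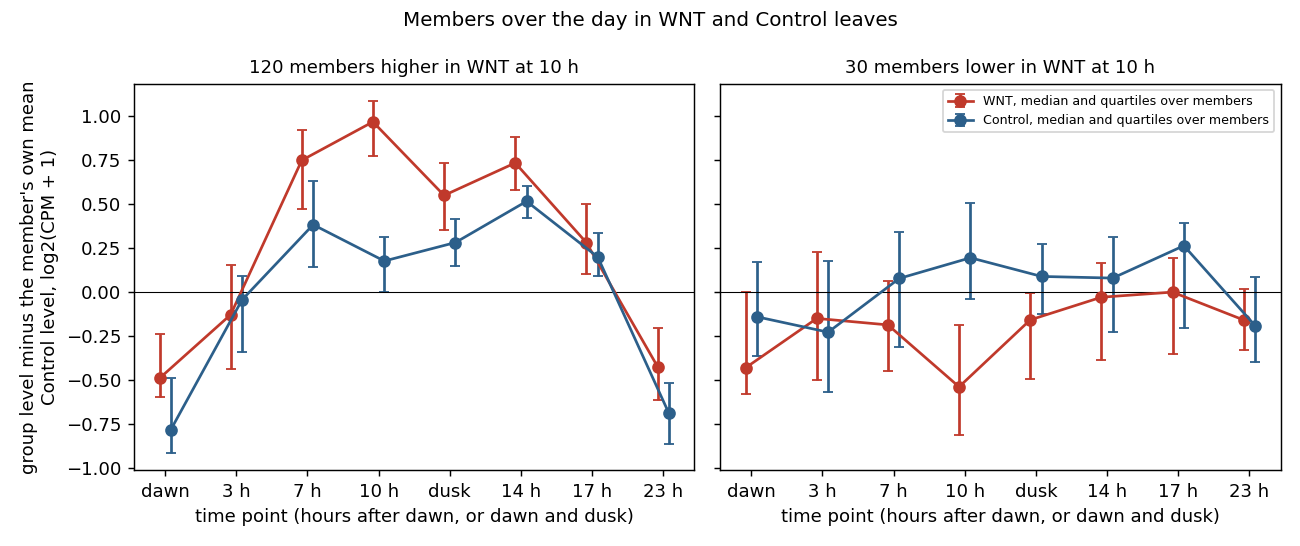
Levels over the day relative to each member's own mean Control level, on the log2(CPM + 1) scale, for the 120 higher members (left) and the 30 lower members (right). Circles and bars are the median and quartiles over members, in WNT (red) and Control (blue). In the higher members WNT reaches 0.97 at 10 h, against 0.18 in Control, and in the lower members WNT reaches -0.54, against 0.19.

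The mean of log2(CPM + 1) over the higher members gave 5.56, 5.38, 5.68 and 5.49 in the 4 WNT libraries of 10 h, against 4.65, 4.64, 4.78 and 5.05 in the 4 Control libraries. All WNT libraries lay above all Control libraries, and Control replicate 4 was the one closest to WNT. Over the lower members, the same mean was 4.13, 3.95, 3.91 and 3.98 in WNT, against 4.74, 4.85, 4.78 and 4.61 in Control. Again the groups did not overlap and Control replicate 4 was closest to WNT.

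A single library limited the separation in most members. Control replicate 4 was the Control library nearest to WNT at 10 h in 110 of the 150 members, 95 of the 120 higher and 15 of the 30 lower ones, and it was nearest in 44.9% of the 1266 other eligible genes whose groups did not overlap. On the other side, WNT replicate 2 was nearest to Control in 80 of the 150, 74 of them higher members. The gap between the nearest libraries had a median of 0.16 in the higher members, with a range from 0.00 to 0.78, and a median of 0.20 in the lower members. Without Control replicate 4 the median D was 0.81 in the higher and -0.77 in the lower members. Applying the rule anew without this library lost 82 of the 150 members, and without each of the other 10 h libraries it lost 25 to 53. With fewer libraries the condition of no overlap is easier to meet. Without Control replicate 4, 1095 genes passed every condition, against 435 with all libraries and 421 to 697 without each of the others. A lost member may thus have been outranked by newly passing genes, and how many were was not counted.

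At dawn, 3 h, 17 h and 23 h a WNT library lay highest or lowest in its group by some distance. None of these means met the limit of the check for far libraries given below. In WNT replicate 3 the mean over the higher members was 5.00 at 3 h, where the other WNT libraries had 4.13 to 4.48. The same replicate number had 5.49 at 17 h, where the others had 4.75 to 4.96, and 4.71 at 23 h, where the others had 3.86 to 4.28. At 23 h WNT replicate 4, with 3.86, also lay below the rest. At dawn WNT replicate 4, with 3.75, lay below the other WNT libraries, with 4.25 to 4.44, and below all Control libraries, with 3.83 to 4.17. The SD over 4 libraries was 0.36 in WNT and 0.27 in Control at 3 h, 0.34 in WNT and 0.19 in Control at 17 h, and 0.35 in WNT and 0.07 in Control at 23 h. For 10 h it was 0.13 in WNT and 0.19 in Control, for 7 h 0.12 in WNT and 0.08 in Control, and for 14 h 0.10 in WNT and 0.18 in Control. For dawn it was 0.31 in WNT and 0.15 in Control, and for dusk 0.18 in WNT and 0.10 in Control.

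**Figure D3:**
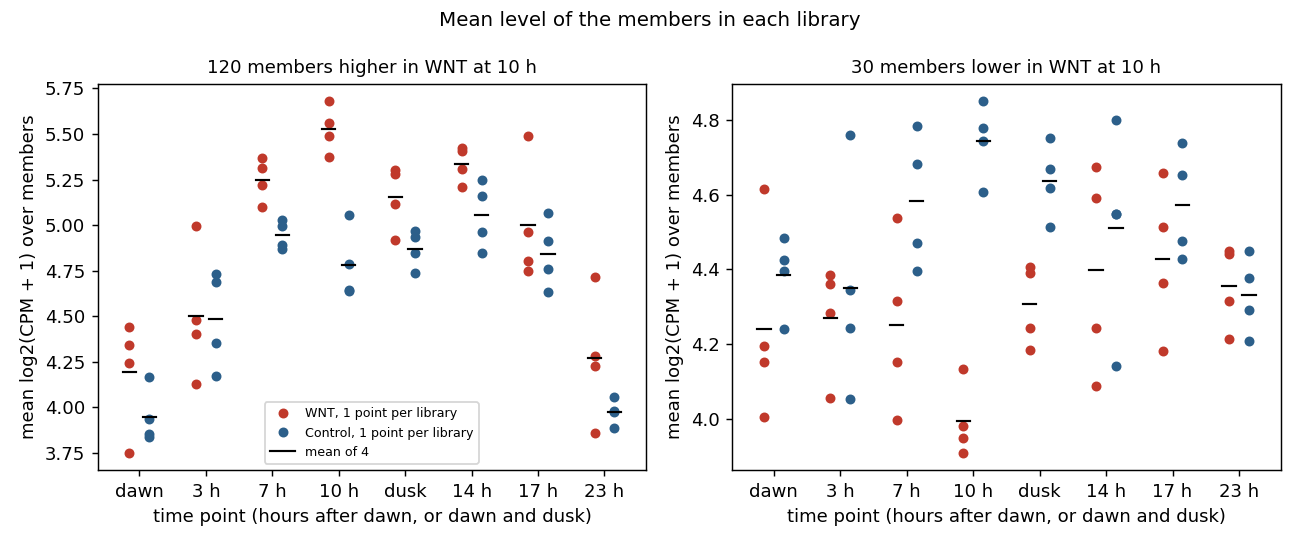
Mean of log2(CPM + 1) over the 120 higher members (left) and the 30 lower members (right) in each of the 64 libraries, by time point, with WNT in red and Control in blue. Points are libraries and black lines means of 4. At 10 h the WNT points lie between 5.38 and 5.68 in the higher members, above the Control points at 4.64 to 5.05, and between 3.91 and 4.13 in the lower members, below the Control points at 4.61 to 4.85.

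Of the members, MH08t0509200 had the largest positive D at 10 h. Its levels there were 12.4, 14.3, 19.5 and 12.2 CPM in WNT, against 6.67, 2.95, 4.74 and 2.35 CPM in Control. The highest Control library lay below the lowest WNT library, and the gene had a D of 1.59. At dawn it had 6.62, 15.2, 17.1 and 14.5 CPM in WNT, against 13.6, 5.24, 6.32 and 5.01 CPM in Control, where WNT replicate 1 lay below Control replicate 1 and D was 1.23. The opposite sign was found only at 3 h, with a D of -0.37. D was 0.68 at 7 h and 1.23 at dusk, and in the night 1.11 (14 h), 0.14 (17 h) and 0.86 (23 h). WNT libraries differed widely from each other at 7 h, with 4.02, 7.39, 25.6 and 24.6 CPM, against 8.68, 7.71, 9.42 and 2.24 CPM in Control.

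MH02t0301000 was the most abundant of the named members and had the next largest positive D. At 10 h it had 302, 263, 313 and 247 CPM in WNT, against 209, 96.9, 91.5 and 91.8 CPM in Control, with a D of 1.57. The WNT libraries lay close together, while Control replicate 1 stood above the other Control libraries without reaching WNT. At dusk the levels were 237, 611, 462 and 297.9 CPM in WNT, against 202, 139, 121.9 and 148 CPM in Control, again without overlap and with a D of 1.36. D was negative early in the day, with -0.42 at dawn and -0.14 at 3 h, then 0.72 at 7 h, and in the night 1.10 (14 h), 0.28 (17 h) and 1.13 (23 h). At 14 h the WNT libraries fell into a high and a low pair, with 138, 730, 624 and 151 CPM, against 266, 149, 137 and 135 CPM in Control.

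MH06t0496100 had the largest negative D and the lowest counts of the named members. At 10 h it had 0.863, 0.312, 1.03 and 0.866 CPM in WNT, from 8, 3, 16 and 29 counts, against 7.01, 2.69, 6.38 and 5.04 CPM in Control, with a D of -1.84. The groups did not overlap, and all WNT libraries were near the bottom of the gene's range. At 3 h the order was the reverse in medians, with 6.88, 0.340, 4.17 and 9.43 CPM in WNT, against 2.98, 0.695, 0.865 and 1.26 CPM in Control and a D of 1.64. The groups overlapped there, since WNT replicate 2 had the lowest level of all 8 libraries. D was 0.48 at dawn, -0.95 at 7 h and 0.02 at dusk, and in the night -0.52 (14 h), -0.44 (17 h) and 0.13 (23 h), so the sign changed 4 times from dawn to 23 h.

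MH01t0115100 had the next largest negative D. At 10 h it had 26.8, 18.1, 14.6 and 19.8 CPM in WNT, against 50.9, 42.4, 36.4 and 30.9 CPM in Control, with a D of -1.01 and no overlap. At dusk the levels were 22.6, 24.0, 42.0 and 17.9 CPM in WNT, against 43.8, 37.6, 72.0 and 41.4 CPM in Control, where WNT replicate 3 reached into the Control range and D was -0.84. At 7 h the levels were 36.7, 25.5, 26.8 and 35.9 CPM in WNT, against 38.5, 88.97, 60.5 and 37.5 CPM in Control, and the groups came close without overlap, with a D of -0.62. D was -0.24 at dawn and -0.60 at 3 h, and in the night -0.11 (14 h) and -0.43 (17 h). The opposite sign was found only at 23 h, with a D of 0.05.

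**Figure D4:**
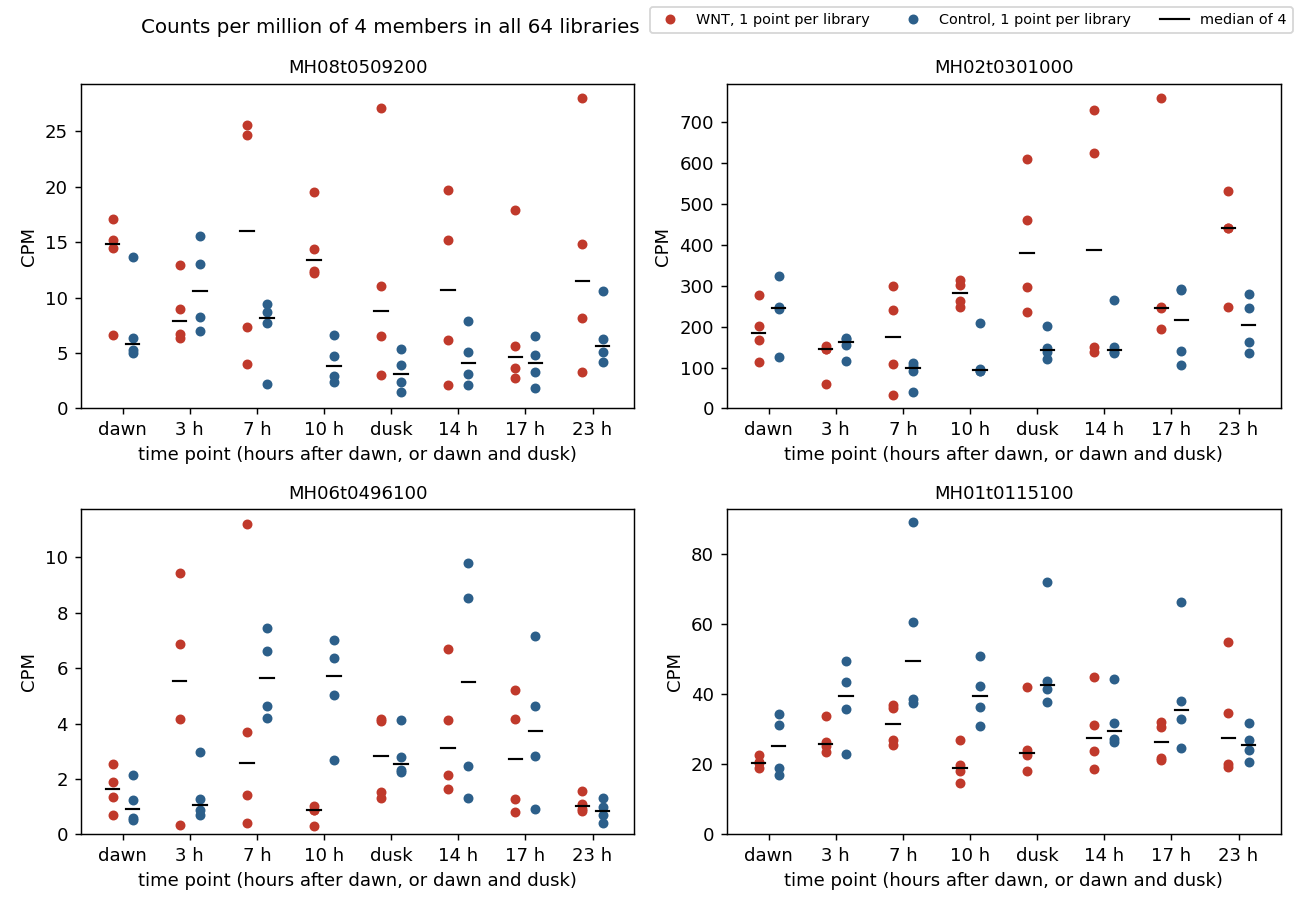
CPM of the 4 named members in all 64 libraries by time point, with WNT in red to the left of Control in blue. Points are libraries and black lines medians of 4, and each vertical axis starts at 0. At 10 h MH08t0509200 and MH02t0301000 lie higher and MH06t0496100 and MH01t0115100 lower in WNT, without overlap, while the groups overlap at the other times except for MH02t0301000 at dusk and MH01t0115100 at 7 h.

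The question of how WNT changed expression at each hour was also put to the whole count table. With edgeR's quasi-likelihood test and Benjamini-Hochberg adjustment over 20525 genes, 0 of the 150 members were called at 10 h at an adjusted p-value under 0.05, beside 0.0% of all genes tested. An unadjusted p under 0.05 was found in 135 members and in 8.82% of all genes tested. DESeq2 called 44 members, 34 higher and 10 lower, beside 1.14% of all genes tested, and limma-voom with sample quality weights called 94.0% of the members, 28 of them lower, beside 13.3%. The call at 10 h thus depended on the tool. Away from 10 h edgeR called 0 members at each time, with 8 to 30 of them at an unadjusted p under 0.05, and the other tools called 0 to 4. For the unadjusted p and the other tools, the shares of all genes tested at those times are not given here. Of all genes tested, edgeR called 0.404% at dawn, 6.84% at 3 h and 0.0% at 7 h and dusk, and in the night 0.00487% (14 h), 0.195% (17 h) and 0.00974% (23 h). The members were chosen on this contrast, so nothing is read from these counts.

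The members' daily course was tested between times of day within each treatment, in contrasts that hold no 10 h library. The rule used these libraries through the mean CPM over all libraries, the Control range over the day, and the sign and size of D. Control levels of the members varied more over the day than those of the eligible genes, with a median range of 1.47 in the higher and 1.45 in the lower members, against 1.09, and the part of this range and of the members' higher abundance in the counts of calls was not tested.

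From 7 h to dusk, the hours on both sides of 10 h, the calls in the higher members were mostly falls in both treatments. In WNT, edgeR called 47 of the 120 (39.2%) lower and 2 higher at dusk than at 7 h, while 14.1% of the eligible genes were called lower and 7.84% higher. In Control, 37 (30.8%) were called lower and 2 higher, while 13.0% of the eligible genes were called lower and 9.14% higher. These calls rest on TMM-scaled libraries. Over all 120, called or not, the edgeR median was -0.57 in WNT and -0.39 in Control. By library sums, the medians relative to the own mean Control level went from 0.75 to 0.55 in WNT and from 0.38 to 0.28 in Control. Eligible genes had edgeR medians of -0.06 and -0.08, but went from -0.02 to 0.18 and from -0.04 to 0.13 by library sums. The contrast was not tested with library sums. The falls that were called had a median log2 fold change of -0.75 in WNT, with a range of -1.88 to -0.56, and of -0.71 in Control, with a range of -1.52 to -0.46. Of these members, 30 were called lower in both treatments, which is 63.8% of the WNT and 81.1% of the Control calls. The overlap was not counted for the eligible genes, so nothing is read from it.

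Of the lower members, 6 of 30 (20.0%) were called lower and 4 (13.3%) higher at dusk in WNT, and 7 (23.3%) were called lower and 2 (6.67%) higher in Control, beside the same shares of the eligible genes. Over all 150 members the count of calls was 59 (39.3%) in WNT and 48 (32.0%) in Control, while 22.0% of the eligible genes were called in WNT and 22.1% in Control. The counts depended on single libraries. In Control they were 21 without 7 h replicate 1, 30 without 7 h replicate 2, 31 without 7 h replicate 4 and 29 without dusk replicate 1, and in WNT the count was 38 without dusk replicate 4.

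Between night and day, more of the higher members were called lower than higher at night. Night was the mean of 14, 17 and 23 h and day the mean of 3 and 7 h. In WNT, 59 of the 120 (49.2%) were called lower and 13 (10.8%) higher at night, while 24.6% of the eligible genes were called lower and 22.7% higher. In Control, 73 (60.8%) were called lower and 3 (2.50%) higher, while 22.3% of the eligible genes were called lower and 20.1% higher. The median log2 fold change over all 120, called or not, was -0.38 in WNT and -0.47 in Control, against 0.02 in WNT and -0.01 in Control over the eligible genes. By library sums, the Control medians relative to the own mean Control level were -0.05 (3 h) and 0.38 (7 h) by day. At night they were 0.52 (14 h), 0.20 (17 h) and -0.69 (23 h). The WNT medians were -0.13 and 0.75 by day, then 0.73, 0.28 and -0.42. Of the night times only 23 h thus lay below both day times on that scale. The contrast was not tested with library sums. Of the members called lower, 58 were called in both treatments, 98.3% of the WNT and 79.5% of the Control calls. Here too the overlap was not counted for the eligible genes, and nothing is read from it.

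Among the lower members, 8 of 30 (26.7%) were called lower and 4 (13.3%) higher at night in WNT, beside 24.6% and 22.7% of the eligible genes. In Control, 14 (46.7%) were called lower and 4 higher, beside 22.3% and 20.1%. The share called lower in WNT was thus near that of the eligible genes. Whether the counts differ between WNT and Control was not tested, since that difference rests on the contrasts the rule used. With 23 h left out of the night, 41 of the 120 higher members (34.2%) were called lower and 18 higher in WNT, beside 24.8% and 21.7% of the eligible genes. In Control the same setting gave 50 (41.7%) called lower and 7 higher, beside 20.8% and 19.7%. With 17 h left out, 61 (50.8%) were called lower and 10 higher in WNT, beside 21.9% and 20.2%, and 67 (55.8%) lower and 3 higher in Control, beside 18.5% and 16.7%. More of the higher members were thus called lower at night when 23 h was part of it.

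The end of the night was set against its beginning in a contrast of 23 h with dusk, which was added after the daily course had been seen. In WNT, 62 of the 120 higher members (51.7%) were called lower and 3 higher at 23 h than at dusk, while 13.2% of the eligible genes were called lower and 21.7% higher. In Control, 67 (55.8%) were called lower and 6 higher, while 18.0% of the eligible genes were called lower and 23.9% higher. The falls that were called had a median log2 fold change of -0.82 in WNT and -0.89 in Control. Of the higher members, 52 were called lower in both treatments, an overlap that was not counted for the eligible genes and from which nothing is read. Of the lower members, 10 of 30 (33.3%) were called higher and 1 lower in WNT, and 8 (26.7%) were called higher and 3 lower in Control, beside the same shares of the eligible genes.

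**Figure D5:**
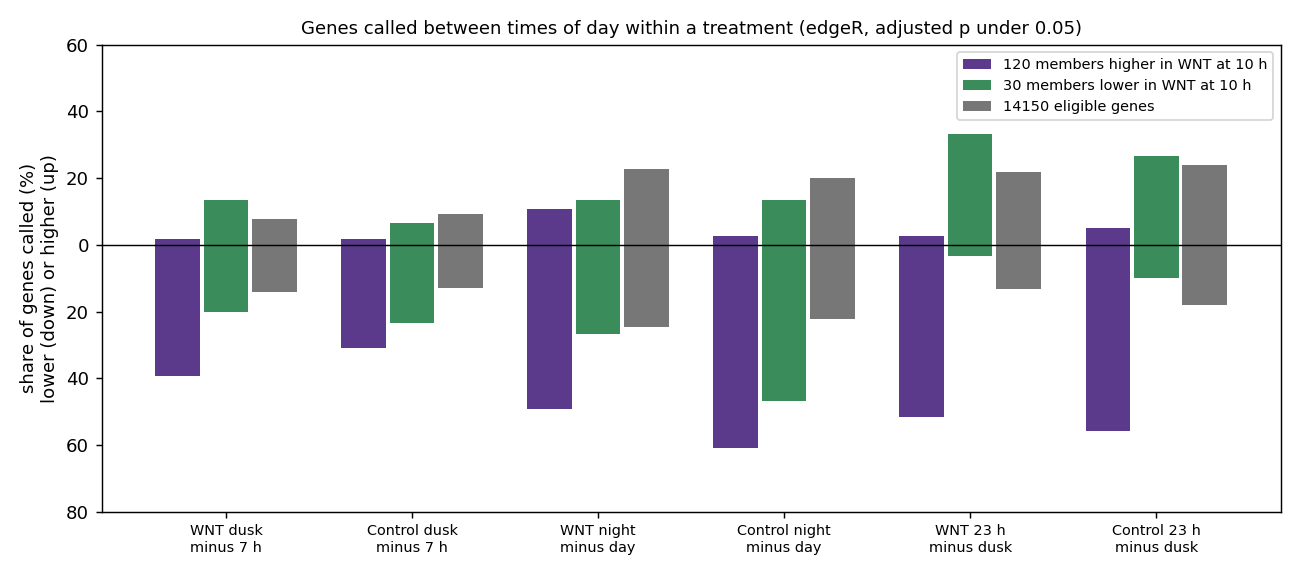
Share of genes called by edgeR between times of day (%), higher upwards and lower downwards, for the 120 higher members (purple), the 30 lower members (green) and the 14150 eligible genes (grey), in WNT and Control leaves. The higher members are called lower in 39.2% and 30.8% at dusk against 7 h, 49.2% and 60.8% at night against day, and 51.7% and 55.8% at 23 h against dusk (WNT, then Control), each above the grey bar of the eligible genes.

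The named members took different courses within this pattern. MH08t0509200 was lower at night than by day in Control, with a log2 fold change of -1.15 (SE 0.41, edgeR adjusted p = 0.0183), and had -0.46 (SE 0.41, edgeR adjusted p = 0.369) in WNT. The Control call was lost without replicate 2 (-1.04), without replicate 3 (-0.91), and with 17 h left out of the night (edgeR adjusted p = 0.0985). MH02t0301000 was higher at night in WNT, with 1.13 (SE 0.35, edgeR adjusted p = 0.00613), and had 0.47 (SE 0.34, edgeR adjusted p = 0.266) in Control. This WNT call was lost without replicate 2 (0.98) and without replicate 3 (0.79). In both genes the difference between the treatments was not tested.

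MH06t0496100 was lower at night in WNT, with a log2 fold change of -1.36 (SE 0.43, edgeR adjusted p = 0.00679), and had -0.52 (SE 0.42, edgeR adjusted p = 0.324) in Control. This call was lost without replicate 1 (-0.70) and with 23 h left out of the night (edgeR adjusted p = 0.0752). MH01t0115100 had -0.31 (SE 0.19, edgeR adjusted p = 0.191) in WNT and was lower at night in Control, with -0.80 (SE 0.19, edgeR adjusted p = 0.000404), a call that was lost without replicate 2 (-0.49). From 7 h to dusk none of the 4 named members was called in WNT or in Control by edgeR. For MH06t0496100 and MH01t0115100 too, the difference between the treatments was not tested.

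The members were spread over the genes listed. In the order of the count tables, 2 pairs of members were neighbours among the eligible genes.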

How the data were processed

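Leaf RNA from 64 libraries (2 treatments, 8 time points, 4 replicates) was analysed. The authors mapped reads with HISAT2 and counted them on genes with HTSeq 0.6.0, per the submitters' processing notes, and deposited raw counts for 57174 genes. The genome build, the annotation and the use of strand in counting are not given in the sources used here, so overlapping, antisense and near-identical genes are uncertain. The 5 closing lines of each file, for reads not counted on a gene, held 24.8% to 62.2% of a library's reads and were left out of library sizes and tests. The share was highest in Control replicate 2 at 14 h, followed by WNT replicate 3 at 23 h (40.2%). Reads without a unique alignment made up 21.7% and 10.0% of these libraries, against a median of 4.38% over all libraries. Both entered the night means, and their part in the night calls was not tested.

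CPM were computed from the deposited counts and the library sum, with a pseudocount of 1 on the log2 scale. The deposited counts went into edgeR 4.0.16 under R 4.3.3 (TMM, filterByExpr at a minimum count of 10 and a minimum total of 15, 16 group means, glmQLFit with robust estimation, glmQLFTest), with Benjamini-Hochberg adjustment over 20525 genes within each contrast and a threshold of 0.05. All 150 members passed the filter. Alternatives were RLE size factors, other filters, DESeq2 1.42.0, voom of limma 3.58.1 with quality weights per sample, a replicate block and libraries left out. Figures were drawn with matplotlib 3.10.9. The members, lists and contrasts were chosen with earlier results of these data known. Named are the members with the 2 largest positive and the 2 largest negative D at 10 h among those kept by the filter. Groups follow the treatment and time point in the labels, which also number the replicates. The depth, in reads counted on genes, limits the precision of low levels, and PCR reads without molecular identifiers are not independent molecules.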

Additional observations from a re-analysis of the deposited data

Results flagged for a closer look

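For the 4 named members and the mean levels of the higher and lower members, each group of 4 libraries was checked for a highest or lowest library far from the others, and 5 of 96 checks met the limit, where chance gives about 4.8. MH08t0509200 had 13.6 CPM in Control replicate 1 at dawn, where the other Control libraries had 5.01 to 6.32 CPM. MH02t0301000 had 209 CPM in Control replicate 1 at 10 h, against 91.5 to 96.9 CPM in the others, and 266 CPM in Control replicate 1 at 14 h, against 135 to 149.5 CPM. The same gene had 58.9 CPM in WNT replicate 3 at 3 h, below the 146 to 153 CPM of the others, and 758 CPM in WNT replicate 3 at 17 h, above their 194 to 247.6 CPM.

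Among the 30 lower members, 1 stood apart from Control in both directions. At 10 h it had 0.647, 1.35, 1.03 and 0.746 CPM in WNT, against 2.07, 2.69, 1.82 and 1.93 CPM in Control, and at dawn 3.81, 3.08, 3.16 and 2.98 CPM in WNT, against 2.60, 2.62, 2.24 and 2.70 CPM in Control, with a D of 0.19 and no overlap at either time. At dawn, 2.32% of the eligible genes had WNT above Control without overlap, so nothing is read from this 1 member. The difference between dawn and 10 h was not tested.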

How the results depend on the processing

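The rule returned 60.0% of the 150 members with TMM-scaled and 65.3% with RLE-scaled library sizes, 62.7% with means in place of medians, 64.7% with D taken over same-numbered libraries (a replicate block), and 45.3% to 83.3% with single 10 h libraries left out. All 150 kept the sign of D at 10 h in each of these settings. Groups that do not overlap must keep this sign with means, with same-numbered libraries and with libraries left out. Nothing is therefore read from the unchanged sign. D of MH06t0496100 was -0.87 with a pseudocount of 5. Without a filter on low counts the members called between dusk and 7 h numbered 39 in WNT and 25 in Control. With RLE size factors they numbered 55 in WNT and 38 in Control. With replicate numbers left out they ranged from 23 to 57 in WNT and from 10 to 47 in Control, and with single 7 h and dusk libraries left out, added after seeing the data, from 38 to 63 and from 21 to 46. Night against day gave 68 to 85 in WNT and 62 to 86 in Control with replicate numbers left out, and 23 h against dusk gave 52 to 80 and 61 to 77. Between WNT and Control, where edgeR called 0, DESeq2 and voom called 0.667% and 2.67% of the members at dawn, 0.667% and 2.00% at 3 h and also at 7 h, and 29.3% and 94.0% at 10 h, and replicate numbers left out gave up to 1.33% at 3 h and up to 0.667% at 10 h. Shares of all genes tested with DESeq2 and voom are given for 10 h only, and nothing is read from these percentages.

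Whether replicate numbers pair the samples is not given in the sources used here, and the correlations below cannot decide it. Deviations of same-numbered WNT and Control libraries correlated over 0.1 in 12 of 32 pairs, with a median of 0.02 and a range of -0.61 to 0.31. Those of same-numbered dusk and 7 h libraries within a treatment did so in 3 of 8 pairs, with a range of -0.28 to 0.41. These 3 were Control pairs (0.19, 0.22 and 0.41), while Control replicate 4 had -0.09 and the WNT pairs had -0.28 to -0.08. With the replicate block the calls were 60 in WNT and 47 in Control between dusk and 7 h, 83 and 94 between night and day, and 78 and 85 between 23 h and dusk. The calls of the named members between night and day were also lost with voom (MH02t0301000 0.70, MH06t0496100 -0.49) and without a filter (MH08t0509200 -1.09). The cause of these changes was not tested. Depth limits low members most, as the 3 counts of MH06t0496100 in a WNT library show.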
